A study of Mus musculus with 87 samples.

Results

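Proteasome genes were defined as every probe set of the array with 1 gene symbol that starts with Psm, then a letter from a to g, then a digit. This rule took 58 of the 12422 probe sets that are not controls, and they stand for 46 genes of 8251 with a probe set of 1 symbol. A pair of matching symbols are not subunits: Psmc3ip, a partner of meiotic recombination proteins, and Psme3ip1, a protein named for its interaction with Psme3. They were kept under the rule and are counted apart. The other 44 genes encode the 7 alpha subunits of the 20S core, 4 structural and 3 constitutive catalytic beta subunits, 3 immunoproteasome beta subunits, 6 ATPases and 14 non-ATPase subunits or assembly factors of the 19S particle, 3 activators and 4 assembly chaperones of the core. A further 2 probe sets were annotated to several symbols and were left out.

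Gene expression was measured on Affymetrix MG_U74Av2 arrays in wild-type male mice 8 weeks of age. The strains, all inbred, were DBA/2J and FVB/NJ, C57BL/6J and A/J, and C3H/HeJ with 129S6/SvEvTac; the labels name no treatment. RNA came from the pituitary gland and 6 brain regions, namely periaqueductal gray (in the midbrain), hypothalamus, hippocampus, cingulate cortex, amygdala and bed nucleus of the stria terminalis, giving 87 arrays in 42 groups. Each array held RNA of 1 to 5 mice, 39 groups had 2 arrays and 3 had 3. RNA of the amygdala and cingulate cortex was amplified in 2 rounds from 50 ng, and that of the other tissues was labelled from 10 µg, so tissues were compared only within a protocol.

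The proteasome is the protease that degrades proteins tagged with ubiquitin. Its 20S core is a barrel of alpha and beta rings, in which Psmb6, Psmb7 and Psmb5 carry the proteolytic sites. The 19S particle binds ubiquitin, and its ring of ATPases (the Psmc genes) unfolds the substrate and feeds it into the core. Interferon induces Psmb9, Psmb10 and Psmb8, which replace Psmb6, Psmb7 and Psmb5 in newly made cores and favour peptides that fit class I histocompatibility molecules. The activator Psme1 is induced with them, whereas Psme3 and Psme4 are activators found mainly in the nucleus. In brain tissue immunoproteasome subunits are known mainly from microglia and from inflamed tissue.

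The promoters of the catalytic genes are shown because the results turn on these pairs. They are the 150 bases before the transcript start that RefSeq gives (GRCm38.p6, a reference built from C57BL/6J), read 5′ to 3′ on the strand of the gene. For Psmb6 that start lies inside the gene's annotated span, so the end of its sequence overlaps the span. The element marked in capitals there lies wholly within the overlap. Capitals mark an antioxidant response element (TGACNNNGC, the motif of the Nfe2l1 and Nfe2l2 factors) in Psmb5 and Psmb6 and a gamma-interferon activation site (TTCNNNGAA) in Psmb8. The table used held no entry for Psmb7.
Psmb5, chr14:54617996-54618145, minus strand: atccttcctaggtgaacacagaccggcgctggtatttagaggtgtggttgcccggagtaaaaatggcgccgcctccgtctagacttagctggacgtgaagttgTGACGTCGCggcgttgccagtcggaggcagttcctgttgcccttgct
Psmb8, chr17:34198045-34198194, plus strand: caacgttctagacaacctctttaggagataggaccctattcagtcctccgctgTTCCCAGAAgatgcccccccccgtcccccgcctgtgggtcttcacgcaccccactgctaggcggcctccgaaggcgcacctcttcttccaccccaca
Psmb6, chr11:70525207-70525356, plus strand: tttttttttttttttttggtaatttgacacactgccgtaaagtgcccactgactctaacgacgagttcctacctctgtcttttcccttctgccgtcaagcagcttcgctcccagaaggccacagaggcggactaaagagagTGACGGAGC
Psmb9, chr17:34187331-34187480, minus strand: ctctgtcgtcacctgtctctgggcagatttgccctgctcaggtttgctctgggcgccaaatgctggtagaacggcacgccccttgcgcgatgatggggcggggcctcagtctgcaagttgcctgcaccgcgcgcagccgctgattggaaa
Psmb10, chr8:105938393-105938542, minus strand: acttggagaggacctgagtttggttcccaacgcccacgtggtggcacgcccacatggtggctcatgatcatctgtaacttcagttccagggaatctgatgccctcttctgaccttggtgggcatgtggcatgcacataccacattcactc

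Promoters were found for 39 of the 46 genes, of which 37 encode subunits or their partners. In the 250 bases before the start, on either strand, the antioxidant response element was present in 5 of these 37 genes (13.5%) and in 11.5% of 27025 genes in all. Psmb6 is among these 5, with its element inside the annotated span of the gene. The gamma-interferon site was present in 2 (Psmb8 and Psmg1), 5.41% against 8.13%. An interferon-stimulated response element (GAAA, any 2 bases, GAAA) was present in 3 (Psmb3, Psmd4 and Psmd9), 8.11% against 3.46%, and the CCAAT box in 13, 35.1% against 37.5%. Each motif was counted by its letters alone, and the gamma-interferon motif reads the same on both strands. Psmb9 starts 226 bases from Tap1, a peptide transporter gene that runs in the opposite direction, and 10865 bases from Psmb8, so the 3 genes lie together on chromosome 17.

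Of the 58 probe sets, 51 (44 genes) had a group mean above 55.4, the median of all values, and were tested. The 7 below it were further probe sets of Psmb1, Psmc5 and Psme1, 2 of the 3 of Psmb4, and the only ones of Psmd2 and Psmc3ip. Between the 24 groups of the 4 brain regions labelled from 10 µg, the SD of the log2 group mean had a median of 0.18 over the 51, against 0.23 over the 8460 probe sets tested, and 42 of the 51 were under 0.25. The steadiest was Psmd14, the deubiquitinase of the 19S particle, at 0.08 (group means 357 to 443). The widest was Psmb6 at 0.62 (126 to 651), followed by Psme1 at 0.34 (170 to 374).

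The pituitary, hippocampus, hypothalamus and periaqueductal gray samples carried the markers of their labelled tissues. Summed hormone and pituitary transcripts were 53222 to 66579 on the 12 pituitary arrays and 11324 or less on every brain array, and all 3 markers of the hippocampus, hypothalamus and midbrain were higher in the hippocampus, hypothalamus and periaqueductal gray than in the mean of the other 3 regions of that protocol. The 3 hypothalamus markers were higher in the bed nucleus as well (median 2.81, against 3.75 in the hypothalamus). Their sums were 2753 to 6582 there and 5614 to 12798 in the hypothalamus. The part of hypothalamic tissue in the bed nucleus levels was not tested. A set of 4 pituitary arrays went against their strain labels. Over strain-specific probe sets, the 2 labelled C3H/HeJ correlated at -0.31 and -0.32 with the C3H/HeJ profile of the brain and at 0.87 with that of FVB/NJ. The 2 labelled FVB/NJ correlated at -0.28 and -0.29 with their own and at 0.86 and 0.89 with that of C3H/HeJ, while the other 8 were at 0.79 to 0.87 with their own. Strains were therefore compared over the 6 brain regions. Pituitary results are given with all arrays, and Psmb8, Psme3 and the counts of members called also without these 4. Of the 87 arrays, 81 name an animal that also gave another tissue, so p-values measure the spread between these arrays rather than between independent mice.

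Psmb6, the constitutive subunit with the caspase-like site (gene at chr11:70525324-70527858), read lower in DBA/2J in all 7 tissues. The readings come from probe set 101992_at, the only probe set for this gene. Whether its probes match the sequence of each strain was not tested, so a lower reading is not by itself less RNA. The Psmb6 difference was known when the genes were chosen and is given as a description. In the periaqueductal gray the DBA/2J arrays read 192 and 184, and the 10 arrays of other strains 481 to 655. In the hypothalamus they read 220 and 217 against 377 to 597. In the hippocampus they read 142 and 124 against 259 to 497. In each of these regions the DBA/2J arrays lay below every other array.

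The bed nucleus, where both DBA/2J arrays read 126, had 335 to 525 in the 11 others. The amygdala arrays of DBA/2J read 55.1 and 33.8 against 192 to 400, and those of the cingulate cortex 51.1 and 50.1 against 114 to 261. The pituitary arrays read 102 and 91.9 against 255 to 428. The groups thus did not overlap in any of the 7 tissues. Averaged over the 6 brain regions on the log2(intensity + 16) scale used throughout, the DBA/2J level was 110 against 353 for the mean of the other 5 strains, a difference of -1.55 ± 0.07 (SE; 95% interval -1.69 to -1.41), or 2.93-fold.

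**Figure D1:**
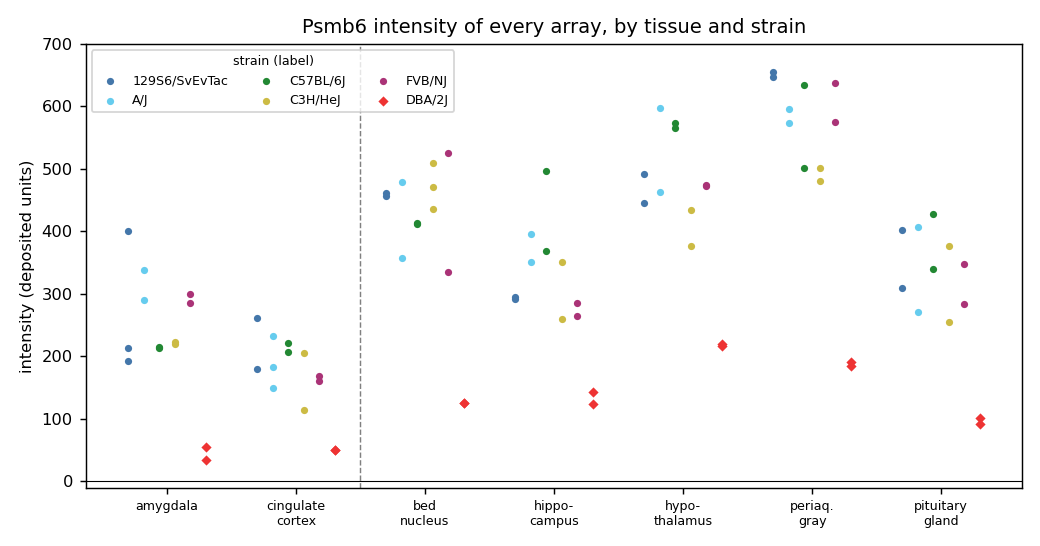
Intensity of Psmb6 on each array (y axis, deposited units, linear) by tissue (x axis) and strain (colour), 1 point per array; tissues left of the dashed line were amplified in 2 rounds. The DBA/2J arrays (diamonds) read 33.8 to 220 and lie below all other arrays of the same tissue.

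Estimates of the Psmb6 difference ran from -1.10 ± 0.18 in the hypothalamus to -2.20 ± 0.18 in the amygdala, which was labelled by the other protocol. The estimate was -1.65 ± 0.18 in the pituitary gland. A strain by region interaction was called for 13 of 51 members (25.5%), against 21.3% of all. Psmb6 was not among them (interaction F test, adjusted p = 0.0727), so a change of its size between brain regions was not shown. On each of the 4 days that held DBA/2J and other strains of 1 region the DBA/2J arrays were lower, by -1.65 in the cingulate cortex, -2.25 in the amygdala, -1.31 in the hippocampus and -1.06 in the hypothalamus (log2 differences of 1 or 2 arrays against 1 to 6). Psmb6 medians of the other strains, pooled over the brain regions, were 318 in FVB/NJ, 358 in A/J and 377 in C3H/HeJ. They were 400 in 129S6/SvEvTac and 413 in C57BL/6J, and the pooled arrays of all 5 overlapped. Against a mean that includes DBA/2J, A/J (0.41), C57BL/6J (0.40), 129S6/SvEvTac (0.36) and FVB/NJ (0.26) were higher, and these values include the low DBA/2J arrays.

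Psmc2, an ATPase of the 19S ring, was the other member lower in DBA/2J. Pooled over the 6 brain regions and both protocols, its arrays read 358 to 1118 (median 467, n = 12) in DBA/2J. Its medians were 511 to 612 in the other strains. The pooled ranges overlapped, which does not show whether the arrays of Psmc2 overlapped within a region. Its level was 560 against 708, a difference of -0.33 ± 0.04 (adjusted p = 1.28e-08) with the same sign in 6 of 6 regions, and -0.38 in the pituitary gland. In DBA/2J 2 members were lower and 0 higher by limma, against 5.46% and 5.9% of all probe sets tested, and 2 were higher at an unadjusted p below 0.05. Psmb6 was the only member past 2-fold in any strain, as were 1.21% of all probe sets. The partners of Psmb6 in the catalytic ring did not pass the test in DBA/2J: Psmb7 was at -0.02 and the Psmb5 probe sets at -0.01 and 0.04. The immunoproteasome counterpart Psmb9 was around 0 in the brain of every strain (medians -3.49 to 7.13), so strains could not be compared.

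Across the 6 strains, 21 of 51 proteasome probe sets (41.2%) differed in the F test over brain regions, against 39.3% of all, so the members changed about as often as other genes. After Psmb6 and Psmc2 the largest F values were those of the assembly chaperones Psmg3 (94543_at, 9.09, adjusted p = 3.20e-05) and Psmg2 (8.99, adjusted p = 3.58e-05). In 129S6/SvEvTac 7 were higher and 2 lower (7.75% and 7.64% of all), among them Psmb5 (101558_s_at, 0.25 ± 0.05) and Psmc1 (-0.19 ± 0.06). The other Psmb5 probe set (160559_at) was at -0.13 and did not pass. A/J had 7 higher and 2 lower (7.29% and 7.03%), with the 19S scaffold gene Psmd1 at 0.20 ± 0.05 and Psmg2 at -0.35 ± 0.06. C57BL/6J had 3 higher and 9 lower (9.61% and 9.82%), with Psme4 at 0.28 ± 0.07, Psme3 at -0.30 ± 0.08 and Psmg3 (94543_at) at -0.34 ± 0.08. The Psme3 difference was -1.20 in the cingulate cortex and -0.72 in the amygdala, and over the 4 regions labelled from 10 µg its sign turned (0.03).

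In C3H/HeJ 3 were higher and 0 lower by limma (3.85% and 4.86% of all; 1 lower at an unadjusted p below 0.05): Psmg3 (94543_at, 0.33 ± 0.08), Psmb1 (98113_at, 0.23 ± 0.04) and Psmc2 (0.16). The other tested Psmb1 probe set (160875_at) was at -0.02 and did not pass. In FVB/NJ 2 were higher and 6 lower (5.99% and 5.59%), with Psmg3 (162356_r_at) at 0.31 ± 0.09, the structural subunit Psmb2 at -0.24 ± 0.05 and Psme1 at -0.23 ± 0.06. All but the Psmb6 difference were below 1.5-fold. Apart from Psmb6, the differences of Psmc2 in DBA/2J and Psmg2 in A/J passed under every alternative that kept all arrays. Each of the others named here missed the threshold under at least 1, except Psmc2 in C3H/HeJ, which was not refitted. Over the 6 strains there were 43 calls (14.1% of the tests, against 13.5% of all). Without replicate 1 or without replicate 2 of every group 1 call was made, the known one of Psmb6 in DBA/2J (-1.63 and -1.47).

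**Figure D2:**
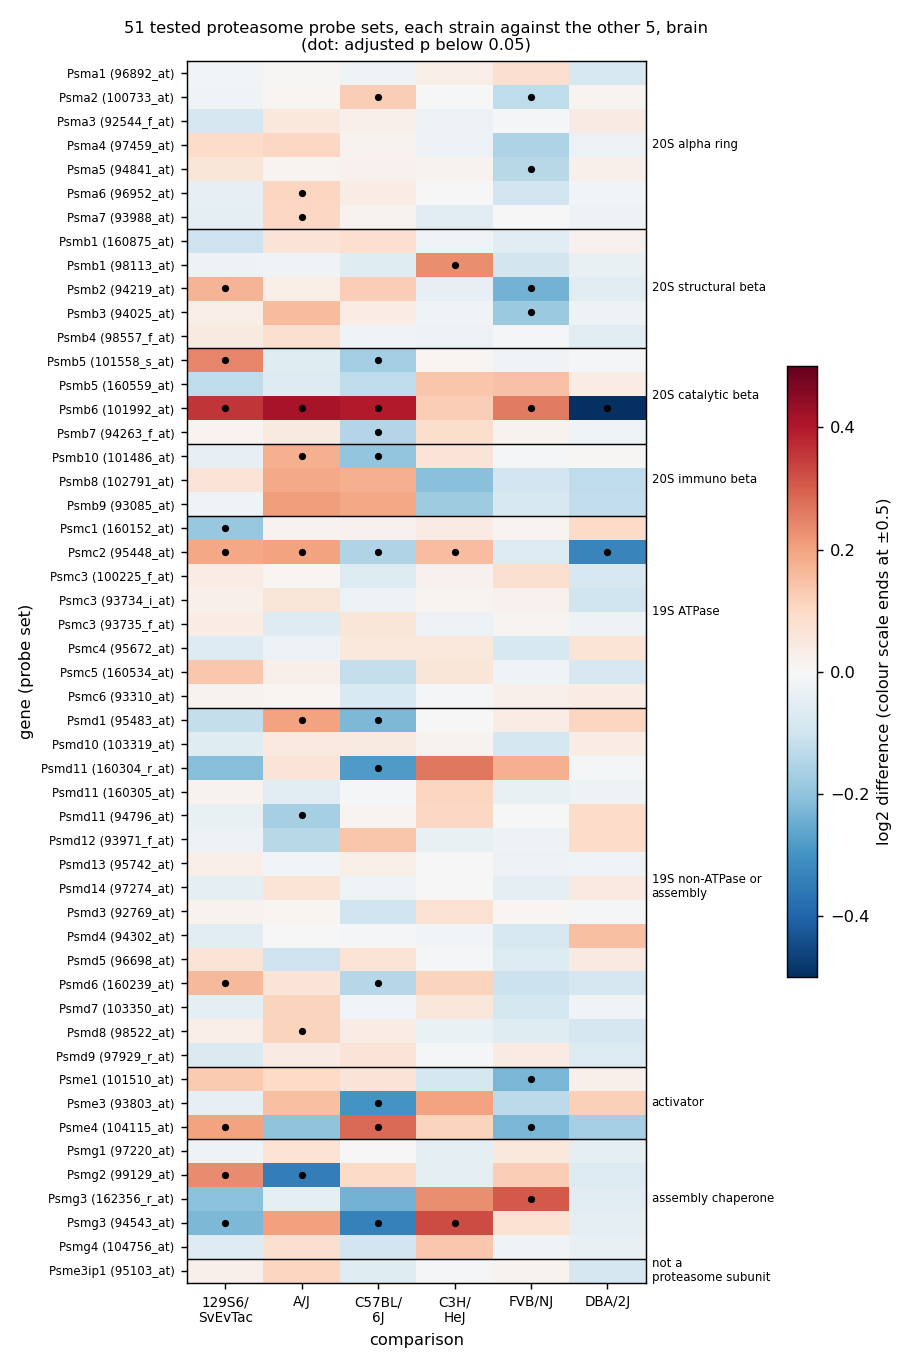
Log2 difference (colour) of the 51 tested probe sets (rows, grouped by role) in each strain against the mean of the other 5 over 6 brain regions (columns); a dot marks adjusted p below 0.05. Psmb6 in DBA/2J (-1.55) lies beyond the end of the colour scale, and the other differences run from -0.35 to 0.41.

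Psmb8, an immunoproteasome subunit, was higher in the pituitary gland than in the brain regions labelled in the same way, while Psmb10 was lower. Psmb9 is described apart because it was near 0 in the brain. Psmb8, the counterpart of Psmb5 (gene at chr17:34198195-34201454), read 169 to 237 (median 215) on the 12 pituitary arrays. The highest of the 49 arrays of the 4 brain regions labelled from 10 µg read 78.4, so the groups did not overlap. The level was 206 against 50.1, a difference of 1.75 ± 0.08 (3.37-fold, adjusted p = 1.33e-27), higher in 6 of 6 strains.

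Psmb9, the counterpart of Psmb6 (gene at chr17:34182030-34187330), read 32.5 to 117 in the pituitary gland. On the 49 brain arrays it read -22.6 to 13.2, around 0, so its level there could not be told from 0 and no fold is given. It passed the filter for a test through the pituitary gland alone. The groups did not overlap, and no difference is given because its size is set by the offset: the log2 value was 0.91 with an offset of 64 and 3.35 with an offset of 4.

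Psmb10, the counterpart of Psmb7 (gene at chr8:105935728-105938392), went the other way. It read 189 to 279 (median 230) in the pituitary gland and had medians of 267 to 346 in the 4 brain regions, and the groups overlapped. The level was 231 against 306, a difference of -0.38 ± 0.04 (adjusted p = 1.10e-11), lower in 6 of 6 strains. Psmb8 and Psmb10 thus moved in opposite directions. Psmb9 is not counted with them because it passed the filter through the pituitary gland alone.

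The constitutive partners were lower in the pituitary gland. Psmb7, with the trypsin-like site, read 370 to 459 there against medians of 583 to 754 in the 4 regions (-0.64 ± 0.05, adjusted p = 1.45e-16). Psmb5, with the chymotrypsin-like site, was at -0.60 ± 0.06 and -0.20 ± 0.09 by its 2 probe sets, and Psmb6 at -0.44 ± 0.07. In bulk tissue, fewer cells of a type and less RNA per cell cannot be told apart in any of these differences.

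**Figure D3:**
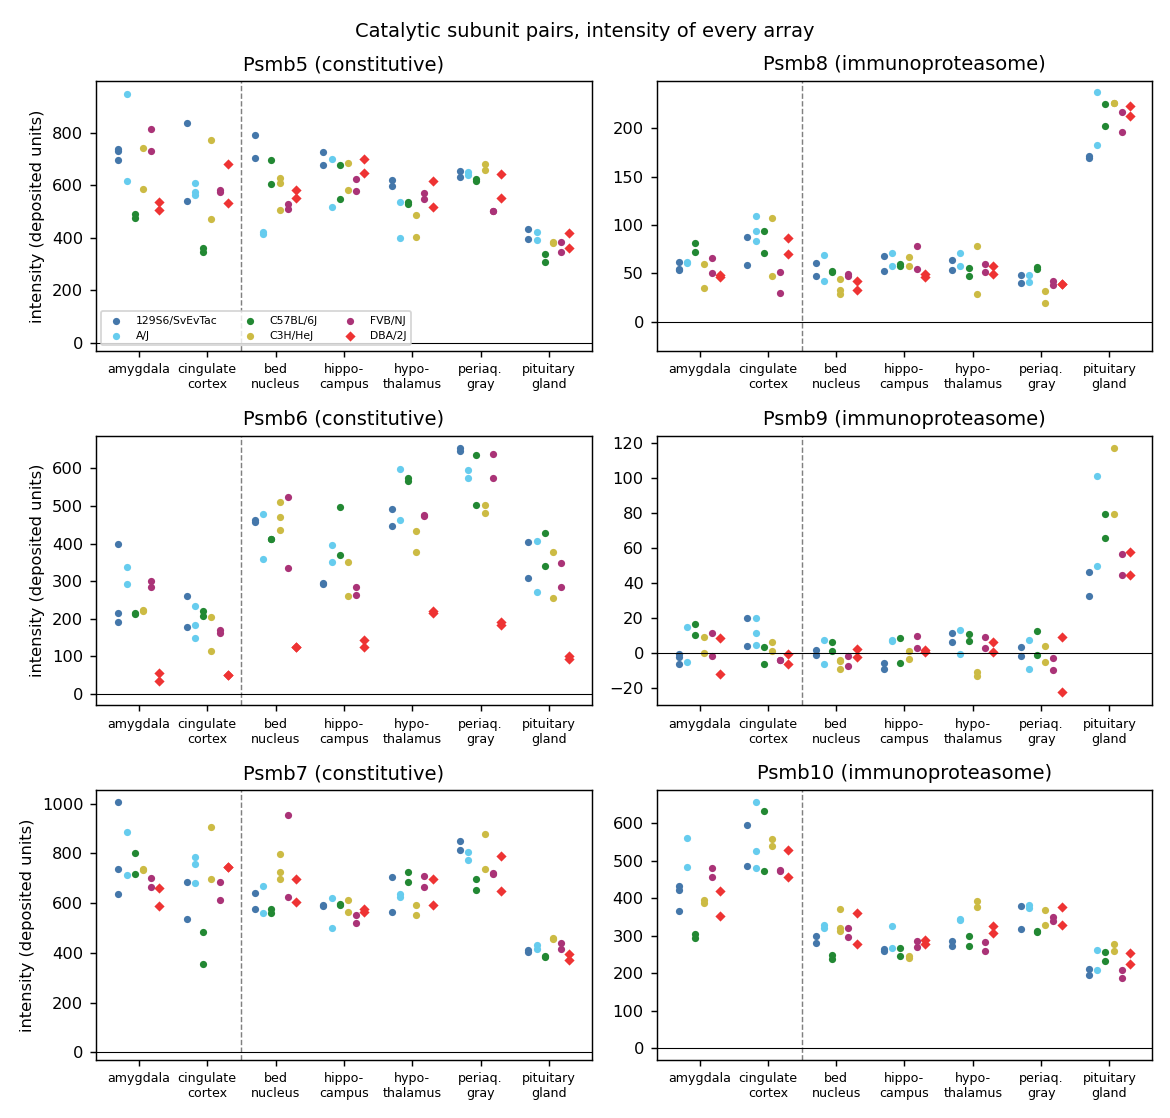
Intensity (y axis, deposited units, linear, a scale of its own in each panel) of the constitutive subunits Psmb5 (101558_s_at), Psmb6 and Psmb7 (left) and their counterparts Psmb8, Psmb9 and Psmb10 (right) on every array, by tissue (x axis) and strain (colour). Psmb8 (169 to 237) and Psmb9 (32.5 to 117) are highest on the pituitary arrays, while Psmb10 (189 to 279) is not.

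The activators split as well. Psme1, which pairs with the immunoproteasome, read 366 to 475 (median 409) in the pituitary gland; its medians were 351 in the hypothalamus, 296 in the periaqueductal gray, 240 in the bed nucleus and 190 in the hippocampus. The difference was 0.65 ± 0.06 (adjusted p = 4.49e-14). Psme3 read 48.1 to 109 (median 82.7) in the pituitary gland and at least 167 on each array of the 4 brain regions, with no overlap (-1.36 ± 0.08, 2.56-fold, adjusted p = 1.76e-21). Psme4 read 108 to 217 in the pituitary gland and had medians of 70.2 to 94.6 in these regions (0.89 ± 0.08, adjusted p = 1.72e-15).

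Among the 51 members, 16 were higher and 25 lower in the pituitary gland, against 42.4% and 37.5% of all probe sets tested, so most genes differed between these tissues. By role, 8 of 8 probe sets of the 19S ATPases were lower (median -0.56, Psmc5 lowest at -0.82 ± 0.05), as were 4 of 4 of the constitutive catalytic subunits. Of 15 for the non-ATPase genes 7 were lower and 4 higher, and of 7 for the alpha ring 2 were lower and 3 higher, with Psma3 at 0.30. Of 5 assembly chaperone probe sets 3 were higher and 0 lower, with Psmg4 the highest at 0.97 ± 0.06 (247 to 419 in the pituitary gland against 107 to 218). The lowest structural subunit was Psmb1 (160875_at, -0.89 ± 0.05), but its other tested probe set (98113_at) was at -0.04. Psmb8 and Psme3 passed 2-fold; the count past 2-fold was 2 higher and 1 lower, against 9.81% and 10.8% of all, but it includes Psmb9, as does the count of 16.

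Without the 4 pituitary arrays that went against their labels, Psmb8 was at 1.68 and Psme3 at -1.25, and 43 members were called in place of 41. Between strains, pituitary Psmb8 ranged little: the lowest arrays were those of 129S6/SvEvTac (172 and 169) and the highest was of A/J (237). Psmb9 in the pituitary gland read 32.5 and 46.4 in 129S6/SvEvTac, and 79.6 and 117 on the arrays labelled C3H/HeJ. Neither passed the F test among strains within the pituitary gland, where 3 of 51 members did (14.4% of all): Psmb6, whose difference was known, Psmc4 (adjusted p = 0.0135) and Psmc2 (adjusted p = 0.0415). The same number, 3, was called without the 4 arrays.

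Genes of antigen presentation and of the interferon response were taken from a fixed list of 21, of which 12 were tested. In the pituitary gland 11 of them were higher and 0 lower, against 42.4% and 37.5% of all probe sets (median 1.28, against 0.04). Genes that passed the filter through the pituitary gland alone, as Psmb9 did, were not set apart in this count. The class I loading factor Tapbp (2.57 ± 0.05), the heavy chains H2-D1 (2.23 ± 0.05) and H2-K1 (1.97 ± 0.06), and their light chain B2m (2.10 ± 0.06) led the list. The interferon regulatory factor Irf1 was at 1.95 ± 0.07, and the peptide transporters Tap2 and Tap1 at 0.91 ± 0.07 and 0.80 ± 0.08. Ifit3 did not pass the test (0.09 ± 0.10).

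Markers of cell types differed in the pituitary gland as well, in both directions. Of 9 microglia markers tested, 8 were lower in the pituitary gland and 0 higher, with a summed level of 715 to 1240 against 1134 to 2212 on the arrays of the 4 brain regions. Of 6 endothelial markers 4 were higher and 2 lower, with sums of 555 to 734 against 412 to 647. Both blood markers were higher, with sums of 2631 to 6930 against 606 to 5910. Neuron, astrocyte and myelin markers were lower (6 of 6, 5 of 5 and 5 of 5). The part of endothelium and blood in the levels of Psmb8 and Psmb9 was not tested.

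**Figure D4:**
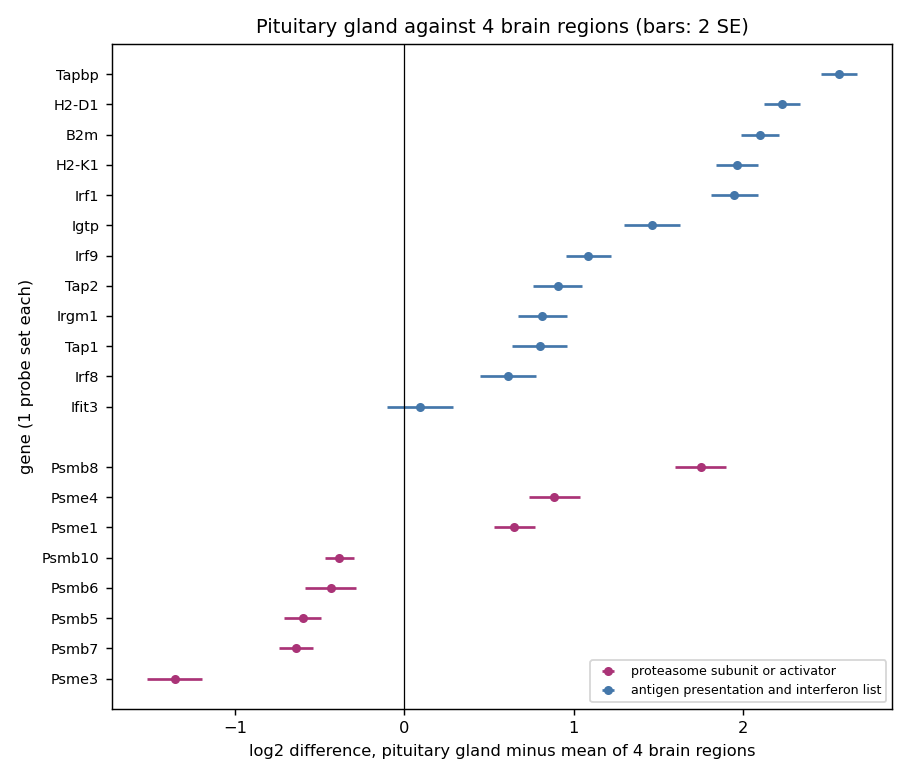
Log2 difference between the pituitary gland and the mean of 4 brain regions (x axis) for catalytic subunits and activators of the proteasome and for 12 genes of antigen presentation and the interferon response (y axis, 1 probe set each); bars are 2 SE. Psmb8 (1.75) lies within the range of the antigen presentation genes, and Psmb10 (-0.38) lies below 0 with the constitutive subunits; Psmb9 is left out because its brain level could not be told from 0.

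Of 25 listed partners of the proteasome and of ubiquitin, 13 were tested, and in the pituitary gland 2 were higher and 8 lower (median -0.13), against 42.4% and 37.5% of all probe sets. The deubiquitinases of the 19S particle, Uchl5 (-1.42 ± 0.05) and Usp14 (-0.90 ± 0.05), and the shuttle factors Ubqln2 (-1.25 ± 0.07) and Ubqln1 (-0.92 ± 0.07) were lower. Nfe2l2, a factor that binds the antioxidant response element, was higher (1.79 ± 0.09), and Nfe2l1, which drives proteasome genes through the same element, was at -0.13 ± 0.04 (adjusted p = 0.00666).

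Within the brain, the immunoproteasome genes differed little. In the hippocampus Psmb8 read 46.4 to 78.0 (median 57.8) and was higher than the mean of the other 3 regions (0.26 ± 0.08, adjusted p = 0.00456). In the periaqueductal gray it read 19.8 to 57.1 (median 40.7) and was lower (-0.29 ± 0.08, adjusted p = 0.00220). The arrays of the 2 regions overlapped. Microglia markers moved in the same direction, 8 of 9 higher in the hippocampus and 9 of 9 lower in the periaqueductal gray, and their part in the Psmb8 level was not tested. With scan day as a fixed term neither Psmb8 difference passed the test. The hippocampus difference was lost with scan day as a random block as well.

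Psmb10 took the opposite order, lower in the hippocampus (-0.23 ± 0.04, adjusted p = 1.20e-05) and higher in the periaqueductal gray (0.23 ± 0.04, adjusted p = 2.98e-05), where it read 242 to 327 and 311 to 383. Psmb9 was near 0 in all 6 brain regions, with medians from -1.86 to 6.20. Among strains, Psmb10 was higher in A/J (0.18 ± 0.04) and lower in C57BL/6J (-0.20 ± 0.04). Psmb8 differed in the F test (adjusted p = 0.00799), although no single strain passed: A/J was at 0.19 ± 0.07, C57BL/6J at 0.18 ± 0.07 and C3H/HeJ at -0.21 ± 0.07.

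In the hippocampus 28 of the 51 members were lower than the mean of the other 3 regions, 6 were higher and 17 did not pass, against 27.3% lower and 21.7% higher of all probe sets, and the median was -0.12, against -0.01. The 19S lid subunit Psmd12 read 180 to 227 (n = 12) in the hippocampus and had medians of 296, 325 and 338 in the other 3 regions (-0.57 ± 0.08, adjusted p = 1.15e-08). Psme1 (-0.56 ± 0.06) and Psmb6 (-0.53 ± 0.08) followed. Lower members were found in each role: 5 of 7 of the alpha ring, 4 of 5 structural beta, 4 of 8 19S ATPase and 8 of 15 non-ATPase probe sets. With scan day as a random block 20 members were called in place of 34, and 5 and 6 with replicate 1 or replicate 2 left out.

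In the hippocampus 6 probe sets were higher. Psmd11 (160304_r_at) was at 0.38 ± 0.11, but the other Psmd11 probe sets were lower (-0.15 and -0.12). Psmg3 (162356_r_at, 0.32 ± 0.10) was higher, and its other probe set was at 0.07. Psme4 (0.22), Psmc3 (93735_f_at, 0.16) and Psmb5 (101558_s_at, 0.16) were higher as well, and the second Psmb5 probe set was at -0.14. The other Psmc3 probe sets were at 0.09 (93734_i_at) and -0.04 (100225_f_at).

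In the periaqueductal gray 22 members were higher and 2 lower, against 19.9% and 20.7% of all, with a median of 0.10, against -0.03. The ubiquitin receptor Psmd4 read 734 to 1286 (median 955) there, and its median was 561 in the hippocampus, 685 in the bed nucleus and 693 in the hypothalamus (0.47 ± 0.07, adjusted p = 5.00e-07). Psmb6 (0.44 ± 0.08) and the ATPase Psmc5 (0.41 ± 0.05) were also higher, and Psmb8 was lower. Psmg2 (-0.16 ± 0.07) was lower as well, but this call was lost under 7 alternatives that kept all arrays, among them scan day as a random block or a fixed term and quantile normalization (-0.30 to -0.03 over the alternatives). The hippocampus and the periaqueductal gray each enter the mean that the other is compared with, so these counts are not independent. Cell-type markers differed in these regions too. In the periaqueductal gray 5 of 6 neuron markers were higher and 1 lower, and 5 of 5 myelin markers were higher (median 0.53). Of 5 astrocyte markers 3 were higher there and 1 lower. In the hippocampus 3 of 5 myelin markers were lower and 0 higher (median -0.45). Of 6 neuron markers 3 were higher and 2 lower there, and of 5 astrocyte markers 2 were higher and 2 lower. Microglia markers went against most members, with 8 of 9 higher in the hippocampus and 9 of 9 lower in the periaqueductal gray. Their part in the proteasome levels was not tested.

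The hypothalamus had 11 members higher and 2 lower (18.5% and 16% of all), led by Psme1 (294 to 398, median 351; 0.52 ± 0.06, adjusted p = 1.87e-09) and the chaperone Psmg1 (0.38 ± 0.06). Psmb5 (101558_s_at, -0.20 ± 0.06) and Psmc3 (93735_f_at, -0.16 ± 0.05) were lower. The other Psmb5 probe set (160559_at) was at 0.17, and the Psmb5 call was lost with scan day as a random block or a fixed term, the Psmc3 call with the fixed term. Antigen presentation genes were higher there as well, 6 of 12 tested and 0 lower, with Ifit3 at 0.71 and Tapbp at 0.47, and the other 6 did not pass. Pituitary markers were higher there too, 3 of 7 tested and 0 lower (median 1.10), with summed levels of 528 to 8773 in the hypothalamus that overlapped those of the other 3 regions (206 to 6798), as was 1 of 2 blood markers. Neuron markers (5 of 6) and myelin markers (4 of 5) were lower. Their part in the levels of Psme1 and these genes was not tested. The bed nucleus had 0 higher and 2 lower by limma (7.52% and 7.4% of all), Psmc3 (93735_f_at, -0.14 ± 0.05) and Psmb4 (-0.13 ± 0.04). At an unadjusted p below 0.05 the counts were 2 higher and 5 lower, and neither call was made with scan day or animals as a random block. The other Psmc3 probe sets were at -0.05 (93734_i_at) and 0.09 (100225_f_at) in the bed nucleus.

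All of these differences between brain regions were below 1.5-fold. They came to 73 calls over the 4 regions (35.8% of the tests, against 34.8% of all). With scan day as a random block the count was 20 in place of 34 in the hippocampus, 20 in place of 24 in the periaqueductal gray and 5 in place of 13 in the hypothalamus; with scan day as a fixed term it was 17, 16 and 5. Without replicate 1 of every group it was 5, 0 and 0, and without replicate 2 it was 6, 2 and 1.

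**Figure D5:**
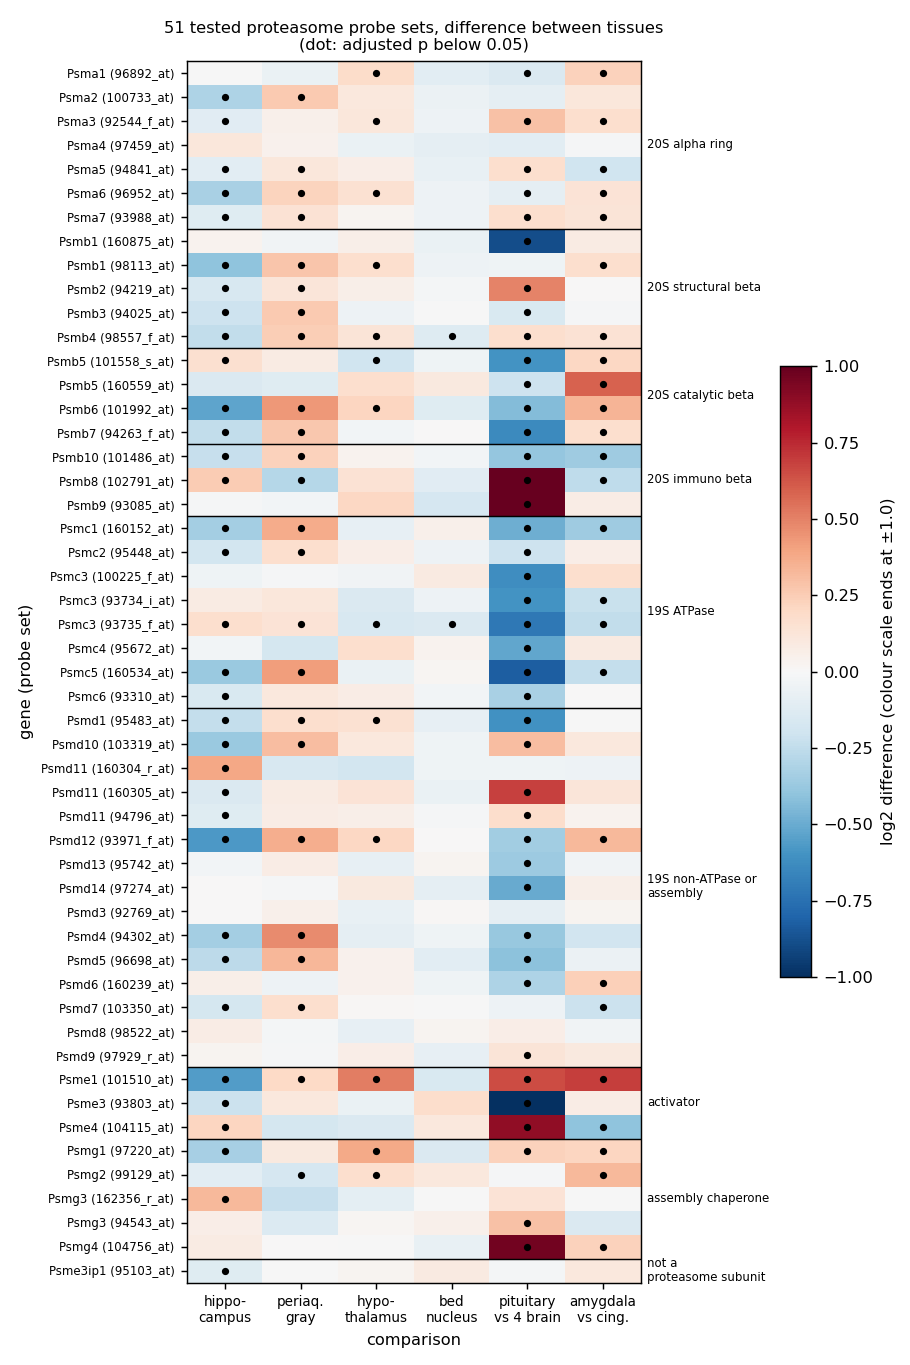
Log2 difference (colour) of the 51 tested probe sets (rows, grouped by role) for 4 brain regions each against the mean of the other 3, for the pituitary gland against these 4, and for the amygdala against the cingulate cortex (columns); a dot marks adjusted p below 0.05. The hippocampus column is mostly blue (28 lower), the periaqueductal gray column mostly red (22 higher), and Psmb8 and Psme3 lie beyond the ends of the scale in the pituitary column, as does Psmb9, whose value there is set by the offset.

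Between the 2 regions amplified in 2 rounds, 16 members were higher in the amygdala and 9 lower (17.4% and 17.2% of all), with a median of 0.07, against 0.01. Psme1 read 146 to 297 (median 212) in the amygdala and 61.5 to 193 (median 128) in the cingulate cortex (0.69 ± 0.07, adjusted p = 8.22e-11). The constitutive catalytic probe sets were all higher (4 of 4), among them Psmb5 (160559_at, 0.59 ± 0.11) and Psmb6 (0.34 ± 0.09). Psmb10 (-0.36 ± 0.05, adjusted p = 2.20e-07) and Psmb8 (-0.26 ± 0.09, adjusted p = 0.0252) were lower, with Psme4 (-0.40 ± 0.09) and Psmc1 (-0.36 ± 0.08). Antigen presentation genes (5 of 12 lower, 0 higher), endothelial markers (4 of 6 lower, 0 higher, median -0.31) and neuron markers (3 of 6 lower, 0 higher) moved the same way, and the part of these cell types was not tested. With scan day as a fixed term, 5 members were called in place of 25, and Psmb10 and Psmc1 were not among them.

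The level of several members followed the protocol. Psma3 read 3150 to 4482 on the 26 arrays amplified in 2 rounds and 840 to 1387 on the 61 others, and Psmb4 (98557_f_at) 2115 to 3144 and 660 to 1156. Protocol and tissue cannot be told apart for these, and no comparison was made across them. Probe sets of 1 gene did not always agree: of 28 gene comparisons with a call and several probe sets, 14 had probe sets of opposite sign, in Psmb1, Psmb5, Psmc3 and Psmd11. The suffix _f_at marks a probe set that can detect several members of a sequence family, and Psma3, Psmb4, Psmb7 and Psmd12 were tested through such a probe set alone.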

How the data were processed

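The deposited matrix held intensity values on a linear scale for 12488 probe sets and 87 arrays, per the file headers; 6.33% of the values are below 0. The software that scaled these values is not given in the sources used here. Per the labels' protocols, RNA was extracted with Trizol, and amygdala and cingulate cortex were kept in RNALater. Array medians were 42.3 to 66.1, and replicates correlated at 0.953 to 0.992 over 48 pairs. An array gives no count depth, so the number of arrays limits the precision. A deposited text file of each array gave its scan day (17 in all) and animal names.

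After removal of 66 controls, negative values were raised to 0, and limma fitted log2(intensity + 16), using version 3.58.1 in R 4.3.3 (42 group means, moderated variances). Tests covered the 8460 probe sets with at least 1 group mean over 55.4, the median value. Benjamini-Hochberg adjustment ran over these 8460 in each comparison, and calls used adjusted p below 0.05. Folds are on the offset scale and understate the change of dim genes; levels are group means transformed back. Replicates are arrays of 1 label; whether a pool was independent is not always stated, since 4 arrays name an animal of their own replicate. Named were Psmb6, Psmb8, Psmb9 and Psmb10, with calls drawn from the 2 highest and 2 lowest per strain and 3 per region. The 5 largest interaction F values and probe sets of 1 gene that disagree were drawn on as well. Not every such call is described. Among those left out, Psmg3 (94543_at) in 129S6/SvEvTac kept its call in 4 of 16 alternatives. Psmd11 (94796_at) in A/J kept its call in 12 of 17 and Psmb6 in the hypothalamus in 8 of 14. Genes added as examples of a role or as the steadiest or widest were chosen after their values were seen. Symbols came from the array annotation (10833 probe sets with 1 symbol, 396 with several, 1193 with none) and promoters and positions from RefSeq (GRCm38.p6). The members, lists and tests were chosen with earlier results of these data known. Replicate numbers were not used as pairs in the main fit. Deviations of same-numbered arrays correlated at a median of 0.0032 between groups (-0.38 to 0.49), and 15.4% of pairs exceeded 0.1. A median over all groups cannot show whether some of them were paired. The fit was tested on simulated data. Alternatives were the offset, normalization, filter, scan day, animals, replicates, regions, probe set choice and a 2-fold minimum.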

Additional observations from a re-analysis of the deposited data

Results flagged for a closer look

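Strain differences depended on the brain region in an interaction test for 13 of the 51 members (25.5%), against 21.3% of all probe sets. The largest F values were those of Psmb5 (101558_s_at, F = 3.22, adjusted p = 0.00442), Psmd11 (94796_at, F = 3.14, adjusted p = 0.00530), Psme3 (F = 3.01, adjusted p = 0.00726), the second Psmd11 probe set (160305_at, F = 2.97, adjusted p = 0.00798) and Psmg4 (F = 2.87, adjusted p = 0.00973). Psme3 in C57BL/6J was at -1.20 in the cingulate cortex and -0.72 in the amygdala against the mean of the other strains, and between -0.04 and 0.14 in the other 4 brain regions. Psmb5 in C57BL/6J was at -0.75 in the cingulate cortex and 0.22 in the bed nucleus, and Psmg4 in DBA/2J at -0.84 in the amygdala and 0.26 in the hypothalamus. Psmd11 differed by probe set: in C3H/HeJ, 94796_at ran from -0.16 (cingulate cortex) to 0.51 (amygdala) and 160305_at from -0.35 (hypothalamus) to 0.60 (periaqueductal gray). Over the 4 regions labelled from 10 µg 1 member was called, over the amygdala and cingulate cortex 9, and with scan day as a random block 2. The part of the protocol and of scan day in these values was not tested.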

How the results depend on the processing

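Psmb6 in DBA/2J, given as a description, ranged from -1.90 to -1.23 over 17 alternatives. All of these used the same probe set, so they do not test whether its probes match the DBA/2J sequence. With the replicate number as a block, the count of strain differences was 20 in place of 21, that of brain region calls 75 in place of 73, Psmb6 in DBA/2J was at -1.55, and the block changed no call of the differences named. Replicate 1, replicate 2 or replicate 3 was left out in turn, so fewer arrays were fitted. Over these fits the members differing among strains numbered 1 to 21 (21 with all arrays), interactions 0 to 19 (13) and strain calls 1 to 45 (43). Pituitary strain differences numbered 0 to 4 (3), region calls 5 to 76 (73) and amygdala calls 1 to 26 (25). Only 3 groups had a replicate 3, and the fit without it gave the 19 interactions, 45 strain calls and 76 region calls. The fits without replicate 1 or replicate 2 left 1 array in 39 groups and lost most strain and region calls. With group means as samples the counts were 7 for strains, 15 for strain calls, 41 for region calls and 10 for the amygdala. With scan day as a random block they were 2 for interactions, 1 for pituitary strains and 45 for region calls. With scan day as a fixed term, chosen after seeing the data, they were 13, 20, 39 and 5 for strains, strain calls, region calls and the amygdala. With animals as a random block interactions numbered 8 and strain calls 26. The 4 regions labelled from 10 µg alone gave 10 strain differences, 1 interaction and 20 strain calls. A 2-fold minimum left 1 strain difference, 1 strain call, 0 region calls, 3 in the pituitary gland and 0 in the amygdala. Quantile normalization gave 9 pituitary strain differences and equal array medians 5. Of 49 named differences, 23 passed under every alternative that kept all arrays (Psmb9 in the pituitary gland among them, whose size the offset sets), and 1 reversed: Psme3 in C57BL/6J was at 0.0315 over the 4 regions labelled from 10 µg. The cause of these changes was not tested. Low signal limits Psmb9, which was near 0 in the brain.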
